A study of Mus musculus with 12 samples.

Results

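The genes described here are 10 markers of Kupffer cells, the resident macrophages of the liver, and they were followed through every library of a mouse liver experiment with 2 diets and 2 library kits. The members were chosen by name: Clec4f, Vsig4, Timd4, Cd5l, Marco, Adgre1, C1qa, C1qb, C1qc and Csf1r. Each of the 10 symbols matched 1 Ensembl identifier among the 27022 genes of the count table. The livers came from 6 female SJL/J mice aged 11 weeks, 3 kept on an AIN-93G control diet with 50 ppm iron and 3 given an AIN-93G diet with 2% carbonyl iron from 6 weeks of age. All mice were fasted and perfused before collection, and the RNA of each was used for 1 Trad-KAPA library, which samples whole transcripts, and 1 3’-LEXO library, which gives reads from the 3’ end. Since 1 cage was kept per diet, the effects of diet and cage cannot be told apart.

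Kupffer cells line the liver sinusoids and clear particles, microbes and aged red cells from the blood, and they return the iron of the red cells to the circulation. They are known by a set of surface receptors for carbohydrates, complement fragments, exposed phosphatidylserine and modified lipoproteins. They also make C1q, which opens the classical complement pathway, and they depend on signals through the receptor encoded by Csf1r.

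All 10 markers had reads in all 12 libraries, and all 10 passed the expression filter in both kits. The lowest value among them was 64 counts, for Marco in a control liver. Library totals lay between 10724672 and 16553616 counts. The liver pieces were whole tissue, and markers of hepatocytes summed to between 112104 and 154664 CPM (counts scaled to a library total of 1 M) in Trad-KAPA, against 497.7 to 948 CPM for the 10 Kupffer cell markers. In whole tissue, fewer cells of a type and less RNA per cell cannot be told apart.

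Marco and Vsig4 were the members that passed the test of the diet in Trad-KAPA, and Clec4f is the member found most narrowly in Kupffer cells. The 250 bases before the RefSeq transcript start of these 3 genes (GRCm38.p6, gene strand) are shown because they let the promoter of the gene with the largest difference be read beside those of its neighbours in the list. In GRCm38 Marco (ENSMUSG00000026390) lies on chromosome 1 from 120474538 to 120505024, Vsig4 (ENSMUSG00000044206) on chromosome X from 96247203 to 96293438, and Clec4f (ENSMUSG00000014542) on chromosome 6 from 83644542 to 83656187. These spans are from GENCODE, and the RefSeq start of Clec4f lies inside its span. Part of the 250 bases of Clec4f therefore falls within the span, which is not so for Marco and Vsig4. The capitals mark the letters GAGGAA, the short form of the site of PU.1, a transcription factor of macrophages.
Marco, chr1:120505025-120505274, minus strand: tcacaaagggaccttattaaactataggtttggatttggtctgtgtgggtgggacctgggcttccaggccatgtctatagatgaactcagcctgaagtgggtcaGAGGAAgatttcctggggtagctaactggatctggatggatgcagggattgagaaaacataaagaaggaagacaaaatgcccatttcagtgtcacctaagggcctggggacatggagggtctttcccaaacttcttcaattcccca
Vsig4, chrX:96293439-96293688, minus strand: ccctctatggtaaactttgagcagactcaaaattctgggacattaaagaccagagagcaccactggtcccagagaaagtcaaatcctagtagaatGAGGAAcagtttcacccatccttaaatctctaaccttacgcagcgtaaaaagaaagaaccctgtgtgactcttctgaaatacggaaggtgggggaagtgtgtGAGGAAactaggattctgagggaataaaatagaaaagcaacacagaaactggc
Clec4f, chr6:83656117-83656366, minus strand: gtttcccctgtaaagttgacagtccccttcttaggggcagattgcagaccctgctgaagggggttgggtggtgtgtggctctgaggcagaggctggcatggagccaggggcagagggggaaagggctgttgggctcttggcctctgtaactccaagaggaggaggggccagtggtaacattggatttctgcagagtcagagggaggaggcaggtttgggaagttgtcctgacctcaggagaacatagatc

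The RefSeq table held a promoter for 7 of the 10 members. GAGGAA, on either strand and in a window from 250 bases before to 50 after the start, occurred in 5 of these 7, namely Marco, Vsig4, Cd5l, C1qb and C1qc, and in 28.3% of all 32851 promoters. In Marco it lay 146 to 141 bases before the start, and Vsig4 held it at 155 to 150 and again at 53 to 48 bases before the start. The longer form GAGGAAGT, which contains the short one, was found in C1qc and in 3.2% of all promoters. TGCTGAC, a part of the MAF site, was found in Timd4 and in 4.67% of all promoters, while CACGTG (7.15% of all) and TGACTCA (5.2% of all) were found in 0 of the 7. TGACNNNGC, the core of the antioxidant response element, occurred in Clec4f and C1qb and in 12.4% of all promoters. These matches describe letters in a window and are not binding sites.

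Marco, a scavenger receptor with a collagenous stem that binds bacteria and particles, was the member with the largest difference between the diets. In the Trad-KAPA libraries of the control mice it was at 9.54, 8.57 and 4.63 CPM in mice 1, 2 and 3. In the iron-loaded mice it was at 98.6, 54.2 and 54.2 CPM. The lowest iron-loaded liver thus stood well above the highest control liver, and iron-loaded mouse 1 stood above the other two. The means were 7.58 ± 2.61 CPM (SD, n = 3) and 69.0 ± 25.6 CPM, and the fitted fold change was 8.59 (95% interval 5.40 to 13.7, edgeR adjusted p = 0.00143).

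The 3’-LEXO libraries gave 23.6, 18.8 and 15.9 CPM of Marco for the control mice. For the iron-loaded mice they gave 232, 87.1 and 112 CPM. The groups again did not overlap, and the same iron-loaded mouse was the highest. The fitted fold change was 7.06 (95% interval 4.25 to 11.7, edgeR adjusted p = 0.00233). The test of the difference between the kits gave -0.28 ± 0.48 (log2, SE; edgeR adjusted p = 1.00), with a 95% interval from -1.31 to 0.74. Without iron-loaded mouse 1 the log2 fold change of Marco was 2.79 with Trad-KAPA and 2.32 with 3’-LEXO, against 3.10 and 2.82 with all mice. That mouse differed from the other iron-loaded mice in more than Marco. Its libraries differed from theirs by a chi-square per degree of freedom of 34.2 to 42.2, while those of mice 2 and 3 differed by 4.46 with Trad-KAPA and 4.56 with 3’-LEXO, and its hepatocyte markers summed to 112104 CPM in Trad-KAPA, against 148946 and 153462 CPM. With mice 2 and 3 summed to 1 sample, the log2 fold change of Marco was 3.24 with Trad-KAPA and 3.00 with 3’-LEXO (edgeR adjusted p = 0.00368 and 0.00262). Marco was the 1 member called higher in both kits, as were 2.67% of the 12229 genes tested in both. Over the 16 settings of the fit, Marco was called in 16 of 16 in both kits. A fold change as large as that of Marco or larger was fitted for 23 of 13151 genes (0.175%) in Trad-KAPA and for 33 of 13301 (0.248%) in 3’-LEXO. The kits measured the same 6 RNAs, so that one kit is a repeat measurement of the other.

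**Figure D1:**
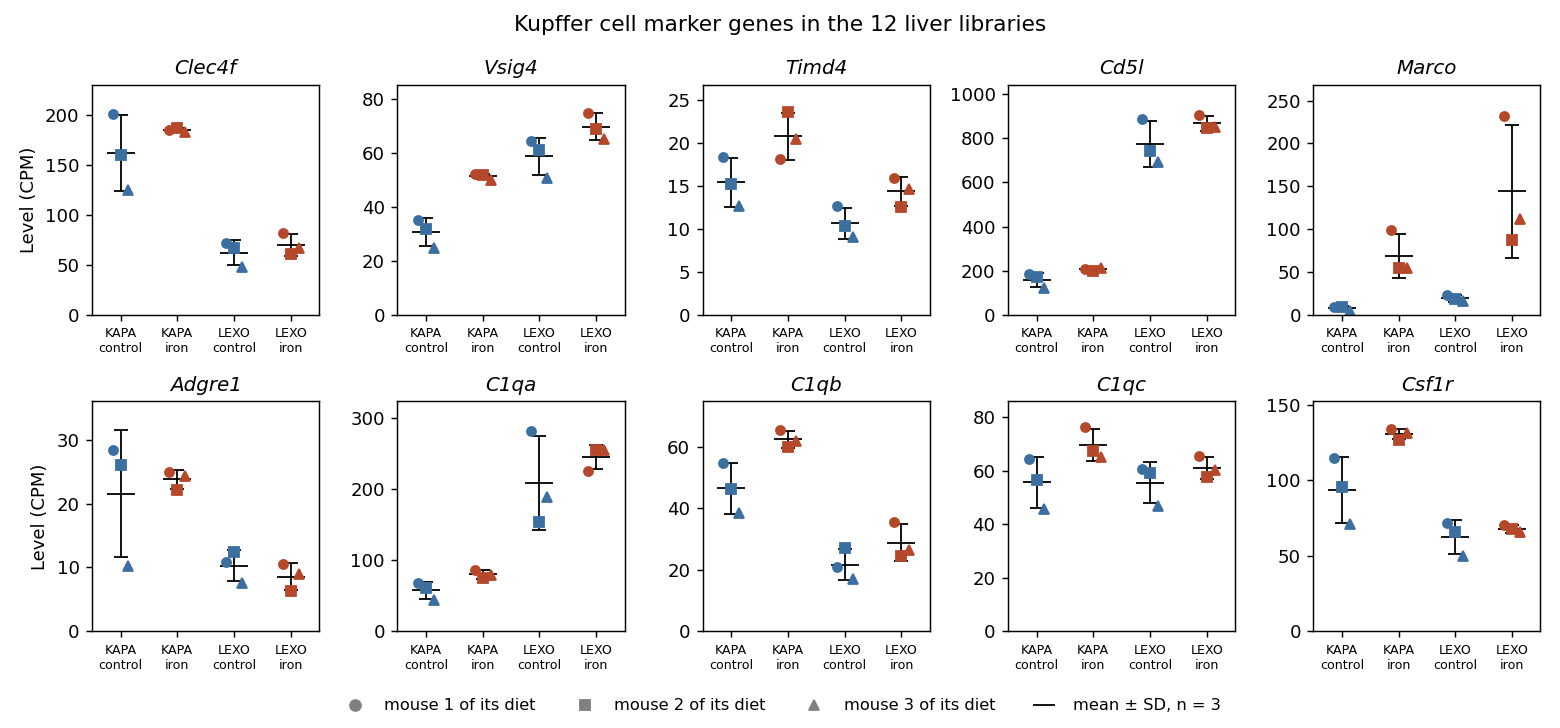
Level of each Kupffer cell marker gene in CPM (linear axes from 0) in the 12 libraries, by kit and diet, with a symbol per mouse and black bars for the mean ± SD of 3 mice. Marco rose in both kits, from 7.58 to 69.0 CPM on average in Trad-KAPA and from 19.4 to 144 CPM in 3’-LEXO, whereas the relative difference between the diets is smaller for every other marker.

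Vsig4, the macrophage receptor for the complement fragments C3b and iC3b, was the other member called in Trad-KAPA. Its control livers had 35.0, 31.9 and 24.9 CPM. Its iron-loaded livers had 52.2, 51.8 and 50.2 CPM. The groups did not overlap, and the iron-loaded livers lay within a much narrower range than the control livers. The fitted fold change was 1.61 (95% interval 1.33 to 1.94, edgeR adjusted p = 0.0102).

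In 3’-LEXO the control livers had 64.4, 61.0 and 51.0 CPM of Vsig4, and the iron-loaded livers had 75.1, 69.1 and 65.2 CPM. The groups were separate, but by little, and this gap rests on the scaling by plain library totals. The fitted fold change of 1.14 (95% interval 0.924 to 1.41) did not pass the test (edgeR adjusted p = 0.416). The difference between the kits in this diet effect was -0.49 ± 0.17 (log2, SE; unadjusted p = 0.0127, edgeR adjusted p = 1.00), so that a difference between the kits was not shown. With the mouse as a block in that fit, the adjusted p was 0.236. Vsig4 was called in 16 of 16 settings in Trad-KAPA and in 0 of 16 in 3’-LEXO.

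In Trad-KAPA, 2 of the 10 members were called higher on the iron-loaded diet and 0 lower, while 8.77% of the 13151 genes tested were called higher and 8.37% lower (17.1% in either direction). In 3’-LEXO 1 of 10 was called higher and 0 lower, with 3.17% of the 13301 genes tested called higher and 2.92% lower (6.1% in either direction). The fitted log2 fold change was above 0 for 10 of 10 members in Trad-KAPA and for 9 of 10 in 3’-LEXO, against 51.5% and 51.3% of all genes. Without control mouse 3 it was above 0 for 8 of 10 members in Trad-KAPA, where Clec4f and Adgre1 turned, and for 6 of 10 in 3’-LEXO, where Clec4f, Adgre1, C1qc and Csf1r were below 0. The median over the members was 0.36 and 0.14 on the log2 scale, and the median of all genes was 0.02 and 0.01. In Trad-KAPA the groups did not overlap, with the iron-loaded livers higher, for 7 of 10 members and for 24.7% of all genes, and in 3’-LEXO this held for 2 of 10 members and for 18.5% of all genes. Overlap was judged in CPM over plain library totals, while the fold changes used the TMM scaling of the fits. With plain totals in the fit, 57.9% and 57.0% of all genes had a log2 fold change above 0. The separation of C1qc in Trad-KAPA and of Vsig4 in 3’-LEXO rests on the plain totals.

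**Figure D2:**
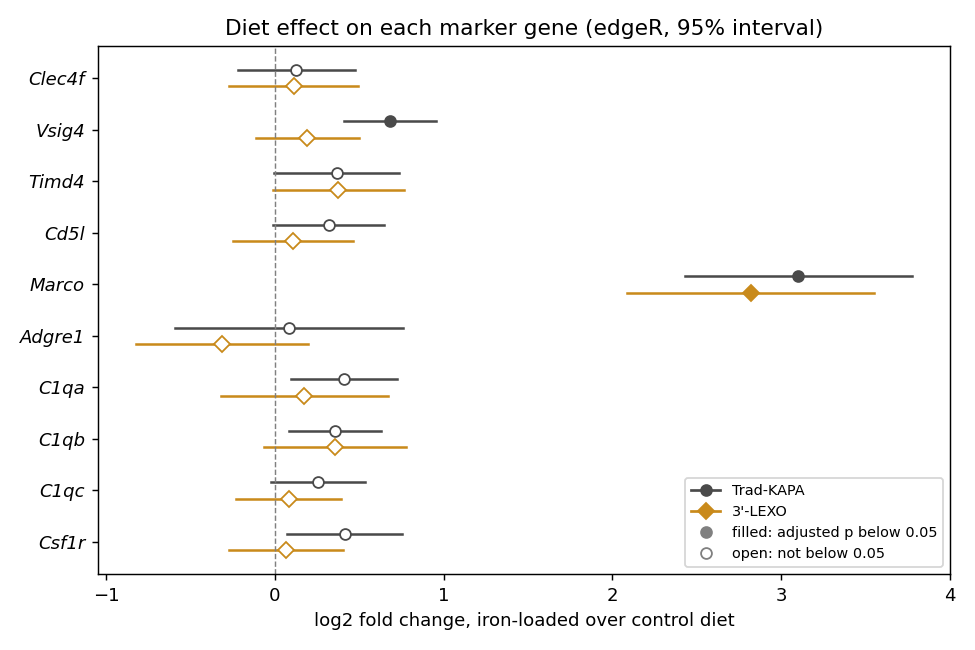
Fitted log2 fold change of each marker gene, iron-loaded over control diet, with its 95% interval, for Trad-KAPA (circles) and 3’-LEXO (diamonds), where filled symbols mark an adjusted p below 0.05. Marco lies at 3.10 and 2.82 and Vsig4 at 0.68 in Trad-KAPA, while the intervals of the other members are near or across 0.

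Among the receptors that mark the identity of the cells, Clec4f, a C-type lectin that binds galactose and N-acetylgalactosamine, showed a small difference. In Trad-KAPA its control livers had 202, 160 and 125 CPM and its iron-loaded livers 186, 187 and 183 CPM. All iron-loaded values thus fell inside the range of the control livers, and their SD was 1.69 CPM against 38.2 CPM. The fold change was 1.09 (95% interval 0.859 to 1.39, edgeR adjusted p = 0.587), and in 3’-LEXO it was 1.08 (0.829 to 1.41, adjusted p = 0.729). Without control mouse 3 the log2 fold change of Clec4f was -0.0040 with Trad-KAPA and -0.03 with 3’-LEXO.

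Timd4, a receptor for phosphatidylserine on dying cells and a marker of long-lived resident macrophages, had 12.7 to 18.4 CPM in the control livers and 18.2 to 23.6 CPM in the iron-loaded livers in Trad-KAPA. The groups touched, since iron-loaded mouse 1 lay just below control mouse 1. The fold change was 1.29 in Trad-KAPA (95% interval 0.996 to 1.67, edgeR adjusted p = 0.151) and 1.30 in 3’-LEXO (0.991 to 1.70, adjusted p = 0.212). It did not pass the test in either kit, but it did in Trad-KAPA without iron-loaded mouse 1 (adjusted p = 0.0461).

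Adgre1 encodes F4/80, an adhesion receptor used to stain mouse macrophages, and it had the widest relative spread of the members among the control livers in Trad-KAPA. Its control livers had 28.4, 26.1 and 10.2 CPM in Trad-KAPA, and its iron-loaded livers had 22.1 to 25.0 CPM. The value of control mouse 3 was less than the other two by far more than they differed. The fold change was 1.06 (95% interval 0.662 to 1.69, edgeR adjusted p = 0.867) in Trad-KAPA and 0.805 (0.566 to 1.14, adjusted p = 0.423) in 3’-LEXO, where Adgre1 was the only member below 1. Without control mouse 3 it was also below 1 in Trad-KAPA, with a log2 fold change of -0.23 (adjusted p = 0.208).

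Cd5l, a secreted scavenger protein also called AIM, was at 120 to 183 CPM in the control livers and at 200 to 212 CPM in the iron-loaded livers in Trad-KAPA. These groups did not overlap, while in 3’-LEXO the ranges of 693 to 889 CPM and 846 to 908 CPM did. The fold change was 1.25 in Trad-KAPA (95% interval 0.993 to 1.57, edgeR adjusted p = 0.157) and 1.08 in 3’-LEXO (0.840 to 1.38, adjusted p = 0.722). Csf1r, the receptor for the growth factors CSF1 and IL-34, had 71.1 to 115 CPM in the control livers and 127 to 134 CPM in the iron-loaded livers in Trad-KAPA. Its fold change was 1.33 (95% interval 1.05 to 1.68, edgeR adjusted p = 0.0883), and in 3’-LEXO it was 1.05 (0.829 to 1.33, adjusted p = 0.818). Csf1r shares 873 exonic bases with Hmgxb3 on the opposite strand, which had at most 349 counts, and the sources used here do not say whether strand was used in counting. The exons of the other 9 members overlap with those of no other gene.

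The ratio of Marco to Clec4f within a library is free of the scaling of the libraries. In Trad-KAPA it was 0.0473, 0.0536 and 0.0369 in the control livers and 0.531, 0.290 and 0.295 in the iron-loaded livers. In 3’-LEXO it was 0.279 to 0.332 and 1.42 to 2.83. The groups were separate in both kits, and the ratio of the means was 8.10 with Trad-KAPA and 6.32 with 3’-LEXO (exact permutation test, two-sided, p = 0.1, the smallest that 3 against 3 mice allow). The ratio of Vsig4 to Clec4f was 0.190 ± 0.0146 (SD, n = 3) in the control livers and 0.277 ± 0.00368 in the iron-loaded livers in Trad-KAPA (exact permutation test, two-sided, p = 0.1). In 3’-LEXO it was 0.956 ± 0.0949 and 1.01 ± 0.110 (exact permutation test, two-sided, p = 0.5).

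C1qa, C1qb and C1qc encode the 3 chains of C1q and lie side by side on chromosome 4 of GRCm38, in the order C1qb, C1qc and C1qa between 136880129 and 136898803. The level of C1qa in Trad-KAPA was 44.2 to 67.3 CPM in the control livers and 74.4 to 86.6 CPM in the iron-loaded livers. That of C1qb was 38.3 to 54.7 and 59.9 to 65.4 CPM, and that of C1qc was 45.8 to 64.5 and 65.2 to 76.5 CPM. The groups of all 3 chains were separate in Trad-KAPA, but for C1qc by less than 1 CPM, a gap that rests on the scaling by plain library totals. None passed the test, with fold changes of 1.33 (95% interval 1.07 to 1.65, edgeR adjusted p = 0.0717), 1.28 (1.06 to 1.55, adjusted p = 0.0726) and 1.19 (0.986 to 1.45, adjusted p = 0.173). In 3’-LEXO the groups of each chain overlapped, and the fold changes were 1.13 (0.802 to 1.59, adjusted p = 0.661), 1.28 (0.957 to 1.71, adjusted p = 0.270) and 1.06 (0.853 to 1.31, adjusted p = 0.758).

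The shares of the chains in their summed level were steadier between the mice than the levels in Trad-KAPA. Per kilobase of merged exons in Trad-KAPA, C1qa made up 44.4% ± 1.46 (SD, n = 6 mice), C1qb 33.7% ± 0.814 and C1qc 22.0% ± 1.08. Counts were not divided by length in 3’-LEXO, which gives about 1 read per transcript, and there the shares were 72.6% ± 5.07, 8.28% ± 2.28 and 19.1% ± 2.98. The share of C1qa was higher in 3’-LEXO by 28.2 percentage points, and that of C1qb was lower (difference -25.4 points), each in every one of the 6 mice (two-sided exact permutation test by sign flips, p = 0.0313, the lowest value open to 6 mice, and 0.0469 adjusted over the 3 chains). For C1qc the difference was -2.84 points (p = 0.0938 by the same exact test), and this value rests on the length used. With the length of the longest transcript it was -12.0 points and with no division by length -14.7 points (p = 0.0313 by the same exact test for both). Between the control and iron-loaded livers the shares of C1qa were 43.5% ± 1.54 and 45.2% ± 0.840 (SD, n = 3) in Trad-KAPA (exact permutation test, two-sided, p = 0.2). Those of C1qb were 33.7% ± 1.09 and 33.6% ± 0.674 (p = 1 by the same exact test). The share of C1qc was 22.4% to 23.4% in the control livers and 20.2% to 21.7% in the iron-loaded livers, with means of 22.8% ± 0.508 and 21.1% ± 0.832, so that these groups did not overlap (p = 0.1 by the same exact test, the smallest possible). In 3’-LEXO the shares of C1qc overlapped between the diets (p = 0.7 by the same exact test).

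**Figure D3:**
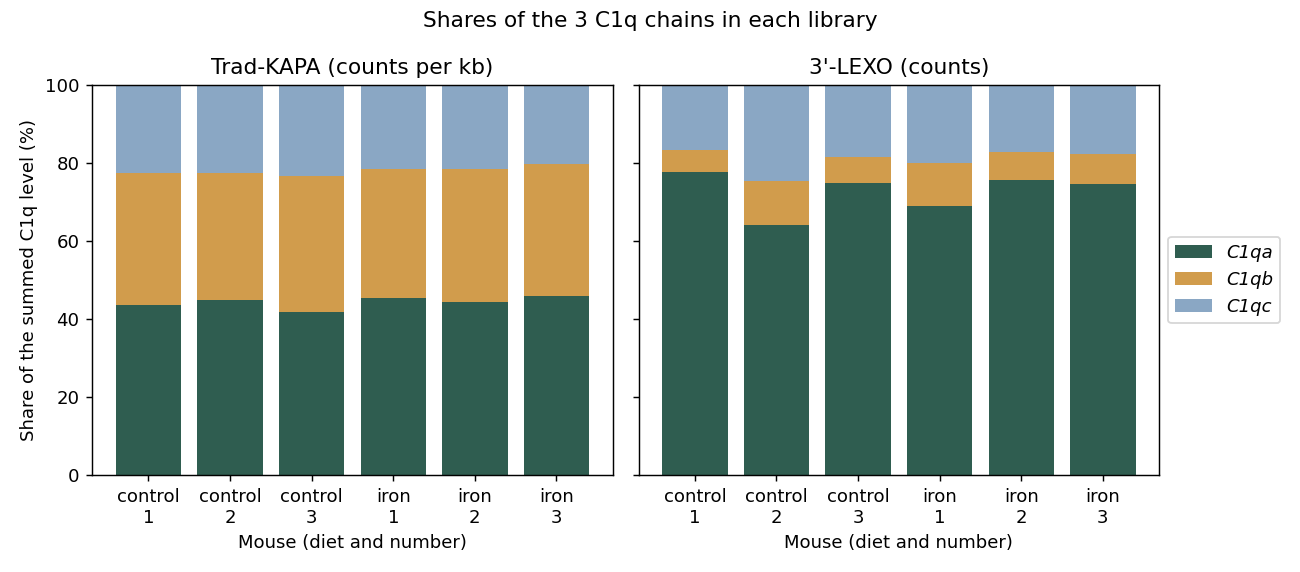
Share of C1qa, C1qb and C1qc in their summed level (%) in each library, from counts per kilobase of merged exons in Trad-KAPA and from counts in 3’-LEXO. C1qb makes up about 33.7% of each Trad-KAPA bar and 8.28% of the 3’-LEXO bars on average, and the share of C1qc in Trad-KAPA is 22.8% on average in the control livers and 21.1% in the iron-loaded livers.

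The order of the members per kilobase of merged exons could be read in Trad-KAPA. In the control livers Cd5l was the highest at 77.8 ± 16.4 CPM per kb (SD, n = 3), followed by Clec4f (65.7), C1qa (55.4), C1qb (42.7), C1qc (28.8), Vsig4 (20.6), Csf1r (16.3), Timd4 (7.11), Adgre1 (6.65) and Marco (3.94 ± 1.35). The ranges of neighbours overlapped except between C1qb and C1qc, between C1qc and Vsig4 and between Csf1r and Timd4. In the iron-loaded livers Marco reached 35.8 ± 13.3 CPM per kb, which placed it between C1qc (36.1) and Vsig4 (34.6), and its range overlapped with both. Cd5l (101), C1qa (77.2), Clec4f (75.0) and C1qb (57.3) were above them, and Csf1r (22.6), Timd4 (9.57) and Adgre1 (7.36) below. With the length of the longest transcript, C1qc changed places with C1qb in both diets, and Marco with Vsig4 in the iron-loaded livers.

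The kits differed in the level of 9 of the 10 members, where 76.5% of the 14384 genes tested differed between the kits, 38.8% higher in 3’-LEXO and 37.6% lower. Such differences in CPM include gene length, which enters the counts of Trad-KAPA. Cd5l was higher in 3’-LEXO by 2.19 ± 0.11 (log2, SE; edgeR adjusted p = 4.48e-10), with a ratio between 4.00 and 5.76 in each of the 6 mice. C1qa (1.74), Marco (1.21) and Vsig4 (0.70) were also higher there, in 6 of 6 mice each. Clec4f (-1.39), Adgre1 (-1.26), C1qb (-1.10), Csf1r (-0.76) and Timd4 (-0.53) were lower in 3’-LEXO in 6 of 6 mice, with adjusted p values up to 0.00120. For C1qc the difference was -0.09 (95% interval -0.28 to 0.10, edgeR adjusted p = 0.364). None of the 10 members was called in the test of the difference between the kits in the diet effect. That test called 0 of the 14384 genes with edgeR and 0 with DESeq2, with 402 and 362 genes at an unadjusted p under 0.05, and with the mouse as a block it called 5 genes, none of them a member.

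Control mouse 3 had the lowest level of the 3 control mice for 10 of 10 members in Trad-KAPA and for 9 of 10 in 3’-LEXO. Of all genes tested, 48.1% and 42.9% were lowest in that mouse. Other lists were also lowest there in Trad-KAPA, with endothelial markers at 432 CPM against 567 and 565 CPM in the other control mice, stellate cell markers at 344 against 486 and 456 CPM, and general macrophage genes at 321 against 498 and 411 CPM. In 3’-LEXO the stellate cell markers were instead highest in control mouse 3, at 848 against 715 and 696 CPM. Endothelial markers (433 against 526 and 523 CPM) and general macrophage genes (470 against 634 and 567 CPM) were again lowest. Red cell precursor markers were highest in control mouse 3, at 151 CPM against 20.3 and 68.7 CPM in Trad-KAPA and at 1215 against 163 and 418 CPM in 3’-LEXO. Their part in the levels of the members was not tested. Over the 9 members other than Marco, its levels had a median of 77.3% of the control mean for Trad-KAPA and 84.4% for 3’-LEXO. Control mouse 1 was the highest for 10 of 10 members in Trad-KAPA and for 8 of 10 in 3’-LEXO. The summed level of these 9 members was 493 to 768 CPM in the control livers and 813 to 850 CPM in the iron-loaded livers in Trad-KAPA, and 1111 to 1484 and 1399 to 1489 CPM in 3’-LEXO. The sums therefore overlapped between the diets in 3’-LEXO and not in Trad-KAPA.

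**Figure D4:**
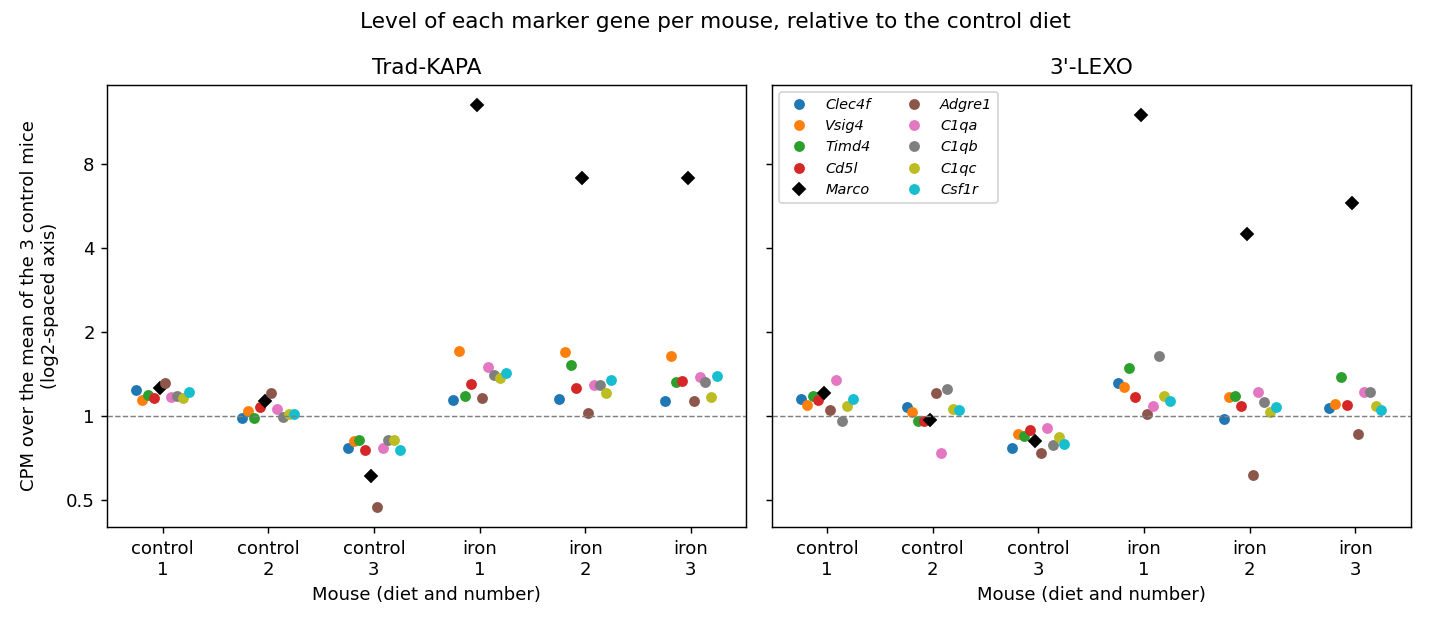
Level of each marker gene in every mouse divided by the mean of the 3 control mice of that kit (axis spaced by log2), with Marco as black diamonds. The points of control mouse 3 lie below 1 in both kits, and Marco is the gene that leaves the others in all 3 iron-loaded mice.

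The members varied together to different degrees. Across the 12 libraries, with log2 CPM centred within each kit, Pearson's r between 2 members was highest for C1qc and Csf1r (0.956) and lowest for Marco and Adgre1 (0.235). These values describe 12 libraries that share mice, diet and depth. The genes outside the list most like the mean of the members, among 11627 genes, were Laptm5 (r = 0.985), a lysosomal membrane protein of blood cells, Slc43a2 (0.983), an amino acid transporter, Ccl24 (0.979), a chemokine, Lyz2 (0.978), the lysozyme of myeloid cells, and Cd44 (0.970), a receptor for hyaluronan. Of these 5, Lyz2 was called higher on the iron-loaded diet in both kits. Values were centred within each kit but not within each diet, so that likeness includes the difference between the diets. Most of these 5 did not stay among the 5 under another measure of likeness.

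The 17 other genes known from resident Kupffer cells were all tested, and Trad-KAPA called 4 of them higher and 3’-LEXO 2, with 0 lower. Over all genes tested, 8.77% were called higher in Trad-KAPA and 3.17% in 3’-LEXO. Slc40a1, which encodes the iron exporter ferroportin, rose from 246 to 476 CPM in Trad-KAPA (fold change 1.85, edgeR adjusted p = 0.00541) and from 196 to 326 CPM in 3’-LEXO (1.60, adjusted p = 0.0411). Clec1b, a C-type lectin, rose from 7.64 to 12.2 CPM (1.52, adjusted p = 0.0286) and from 12.2 to 20.2 CPM (1.59, adjusted p = 0.0425). Named after their values were seen, Hmox1, the heme oxygenase (log2 fold change 1.43), and Mrc1, the mannose receptor (0.58), were called in Trad-KAPA. In 3’-LEXO their log2 fold changes were 0.89 (adjusted p = 0.130) and -0.08 (adjusted p = 0.750). Others, also named after their values were seen, went the other way without a call. Folr2 (-0.20 with Trad-KAPA and -0.93 with 3’-LEXO) and Nr1h3 (-0.33 and -0.32) were below 0 in both kits. Hpgd (-0.37) was below 0 in Trad-KAPA alone, and Siglec1 (-0.56), Fcna (-0.28), Il18bp (-0.23) and Sdc3 (-0.10) in 3’-LEXO alone. The median log2 fold change of the list was 0.34 with Trad-KAPA and 0.03 with 3’-LEXO.

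Of 18 general macrophage and myeloid genes, Trad-KAPA called 5 higher and 3’-LEXO 1, with 0 lower. The shares called higher over all genes were 8.77% and 3.17%, so that the count in 3’-LEXO was near that share. Lyz2 rose from 35.3 to 64.8 CPM in Trad-KAPA (fold change 1.75, edgeR adjusted p = 0.0184) and from 94.0 to 165 CPM in 3’-LEXO (1.69, adjusted p = 0.0371). The other 4 in Trad-KAPA, named after their values were seen, were Ptprc (log2 fold change 0.69), Ctss (0.64), Cybb (0.87) and Cd74 (0.77). The median of the list was 0.49 with Trad-KAPA and 0.29 with 3’-LEXO.

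Genes of recruited monocytes and of lipid-associated macrophages formed a further list. Of 16 genes, 13 were tested in Trad-KAPA and 8 of these were called higher, and of 14 tested in 3’-LEXO 7 were called higher, with 0 lower in both kits. Of those called, Gpnmb, Trem2, Cd63 and Mmp12 in Trad-KAPA and Gpnmb and Mmp12 in 3’-LEXO passed the expression filter only through the iron-loaded libraries, so that the filter itself fixed part of these counts. Of the genes that did not, 4 of 7 were called in Trad-KAPA and 5 of 11 in 3’-LEXO. Over all genes tested, 8.77% were called higher in Trad-KAPA and 3.17% in 3’-LEXO. Without the genes that passed only through the iron-loaded libraries, 1061 of 12702 and 368 of 12829 were called higher. The genes of the list that are best known from monocytes, Ly6c2, Ccr2, Cx3cr1, Itgam, Plac8 and Chil3, were named after their values were seen. They were called in neither kit, with Ly6c2 and Cx3cr1 not tested in Trad-KAPA and Chil3 not tested in 3’-LEXO. Their log2 fold changes in Trad-KAPA were 0.79 (Ccr2), 0.15 (Itgam), 0.21 (Plac8) and 1.86 (Chil3). In 3’-LEXO they were 0.56 (Ccr2), 0.47 (Cx3cr1), 0.21 (Itgam), 0.17 (Plac8) and -0.13 (Ly6c2). All but Ly6c2 were thus above 0 where tested. Cd63, a membrane protein of lysosomes, rose from 0.978 to 12.1 CPM in Trad-KAPA and from 29.7 to 243 CPM in 3’-LEXO. Mmp12, the macrophage elastase, rose from 0.673 to 18.1 CPM and from 0.806 to 18.3 CPM. Lgals3, a lectin, rose from 5.41 to 15.1 CPM and from 8.40 to 18.8 CPM, and Gpnmb, a glycoprotein of phagocytes, from 0.224 to 5.47 CPM and from 0.237 to 4.17 CPM. The summed level of the list was 46.8 to 49.6 CPM in the control livers and 114 to 136 CPM in the iron-loaded livers in Trad-KAPA, and 111 to 129 and 413 to 439 CPM in 3’-LEXO. Marco and the sum of these genes were thus both higher in the iron-loaded livers than in the control livers. This sum takes in all 16 genes, also those that passed the filter only through the iron-loaded libraries. In 3’-LEXO Cd63 alone was at 29.7 CPM of a mean sum of 121 CPM in the control livers. In the iron-loaded livers Cd63 was at 243 CPM of a mean sum of 422 CPM. Within iron-loaded mice 1, 2 and 3 the sum was 136, 114 and 122 CPM in Trad-KAPA, with Marco at 98.6, 54.2 and 54.2 CPM. In 3’-LEXO it was 413, 414 and 439 CPM, with Marco at 232, 87.1 and 112 CPM. The part of these genes in the level of Marco was not tested.

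**Figure D5:**
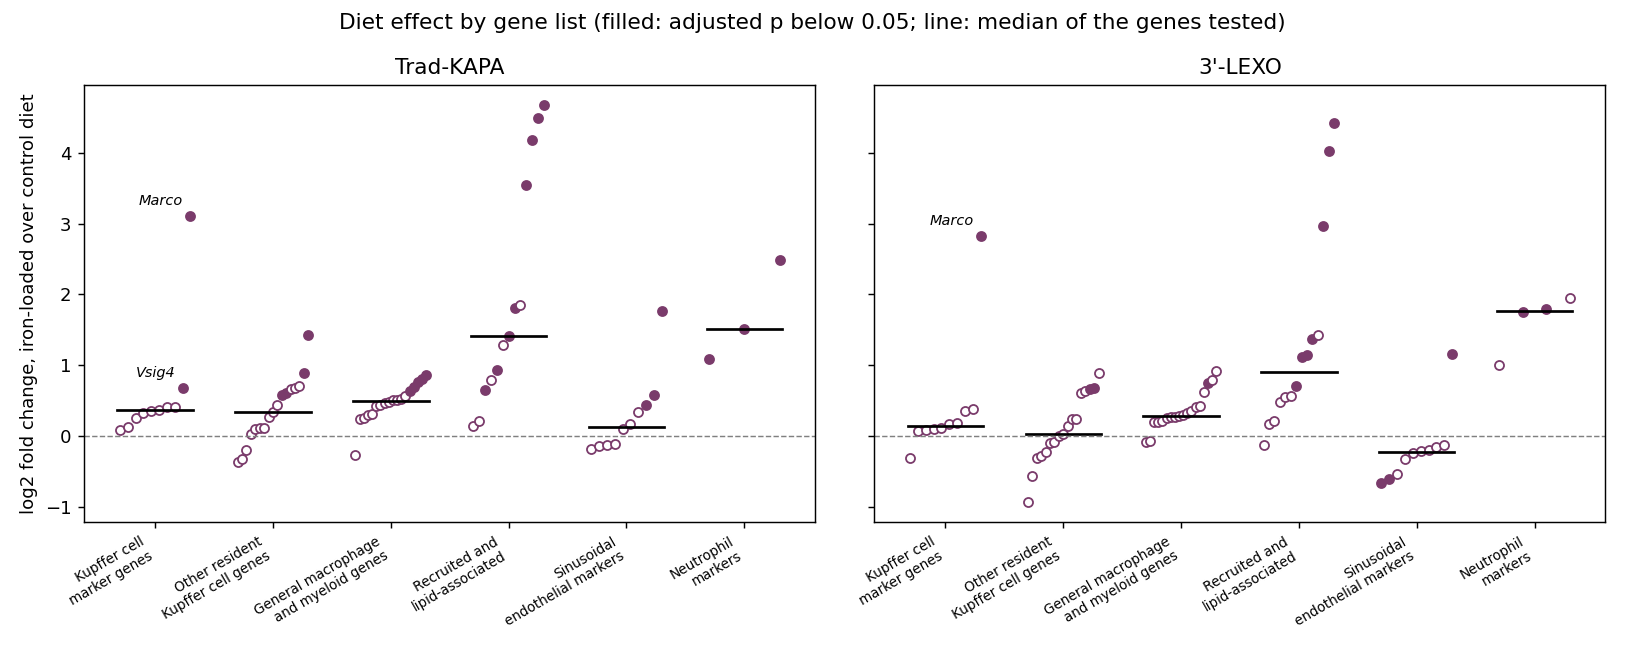
Fitted log2 fold change, iron-loaded over control diet, of each tested gene by list for each kit, with filled points for an adjusted p below 0.05 and a line at the median of the genes tested. The medians of the Kupffer cell markers are 0.36 and 0.14, and Marco is the point far above the others of its list in both kits.

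Some neutrophil markers also differed between the diets. Of 7 markers, 3 were tested and called higher in Trad-KAPA, and 2 of 4 tested were called higher in 3’-LEXO. In Trad-KAPA S100a8 and S100a9 passed the expression filter only through the iron-loaded libraries, so that the filter itself fixed part of that count. Of the markers that did not pass in this way, 1 of 1 was called in Trad-KAPA and 2 of 3 in 3’-LEXO. All 7 markers summed to 2.75 to 5.26 CPM in the control livers and 9.64 to 14.3 CPM in the iron-loaded livers in Trad-KAPA. The sums in 3’-LEXO were 8.44 to 19.8 and 28.2 to 66.1 CPM. S100a9 and S100a8, calcium-binding proteins of neutrophils and monocytes, rose by fitted fold changes of 5.59 and 2.85 in Trad-KAPA. Their fold changes in 3’-LEXO were 3.46 and 3.37. Csf3r was the third called in Trad-KAPA (fold change 2.12). Ly6g, which defines mouse neutrophils, had at most 2 counts in a Trad-KAPA library and at most 1 in a 3’-LEXO library. Among 10 sinusoidal endothelial markers, 3 were called higher in Trad-KAPA, and in 3’-LEXO 1 was called higher and 2 lower. The counts of endothelial and neutrophil markers can be set beside the shares of all genes tested. Trad-KAPA called 8.77% of all genes higher and 8.37% lower, whereas the 3’-LEXO shares were 3.17% higher and 2.92% lower. Lyve1, the hyaluronan receptor found on sinusoidal endothelium and on some macrophages, rose from 3.78 to 13.6 CPM in Trad-KAPA (fold change 3.40, edgeR adjusted p = 0.00374) and from 4.85 to 11.3 CPM in 3’-LEXO (2.23, adjusted p = 0.0435). The others, named after their values were seen where not among the 2 lowest adjusted p values, were Stab1 (log2 fold change 0.44) and Cdh5 (0.58), higher in Trad-KAPA, and Stab2 (-0.60) and Fcgr2b (-0.66), lower in 3’-LEXO. The summed level of the endothelial list was 432 to 567 CPM in the control livers and 531 to 638 CPM in the iron-loaded livers in Trad-KAPA, and 433 to 526 and 379.6 to 400.1 CPM in 3’-LEXO. The part of these cells in the levels of the members was not tested.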

How the data were processed

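Liver RNA of 6 mice was measured in 12 libraries. The authors aligned the reads to GRCm38 with STAR 2.5.3a and deposited raw counts per gene of reads with a unique match in exons, without normalization. The counting program and annotation are not given in the sources used here. GENCODE M21 gave symbols, positions and lengths for 26949 of the 27022 identifiers, and promoters from RefSeq (GRCm38.p6).

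Diet effects were tested in each kit with edgeR 4.0.16 (R 4.3.3), using its quasi-likelihood F test, TMM, filterByExpr and Benjamini-Hochberg adjustment at 0.05 over all genes tested. The difference between the kits and its interaction with diet were tested over all 12 libraries without a term for the mouse. The 2 libraries of a mouse thus entered these fits as if they were independent, and the mouse as a block was an alternative. Intervals use the t distribution of the fit. DESeq2 1.42.0, other scaling, filters, depth, blocks and leaving out each mouse were alternatives, of which plain library totals, the ratio of Marco to Clec4f, the sum without Marco, C1q shares with the longest transcript and the motif TGACNNNGC were added after the data were seen. On simulated counts edgeR recovered 100% of 200 genes changed 3-fold in Trad-KAPA (12989 genes) and 99.5% in 3’-LEXO (13108 genes). Of the genes called there, 4.31% and 6.13% were false. The simulation gave every gene the same variability and changed only genes above a count minimum. It therefore does not measure the power for smaller fold changes or for genes that vary more between mice. CPM used the plain library total. Likeness used genes with at least 1 CPM in both kits and a prior count of 2.

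The members and lists were chosen with earlier results of these data known. Named were all members, from each list up to 4 genes called in both kits with the lowest adjusted p in Trad-KAPA, from marker lists up to 2 called genes, and the 5 genes most like the members. The same number names the same mouse in both kits by the labels, and the deviations of its 2 libraries from their group means correlated with r from 0.435 to 0.765 over 10326 genes. Across diets the numbers name different mice. Libraries of 1 group differed by more than counting noise (chi-square per degree of freedom 4.46 to 42.2). Iron-loaded mice 2 and 3 differed least, so 1 alternative summed them. In the tests of the diet each mouse is 1 replicate, and with 3 per diet the p values measure the spread between mice of a cage.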

Additional observations from a re-analysis of the deposited data

How the results depend on the processing

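Marco was called in both kits, and Vsig4 in Trad-KAPA, under all 16 settings, with adjusted p of at most 0.0120 and 0.0232 for Marco and 0.0409 for Vsig4. Timd4 was called in Trad-KAPA without iron-loaded mouse 1 (adjusted p = 0.0461) and C1qa with no expression filter (0.0468), and no other member changed its call in any fit. Leaving out 1 mouse at a time gave log2 fold changes of -0.004046 to 0.295894 for Clec4f and -0.233762 to 0.319642 for Adgre1 in Trad-KAPA, and of -0.030747 to 0.214174 for Clec4f, -0.006449 to 0.138003 for C1qc, -0.054361 to 0.169211 for Csf1r and -0.021723 to 0.43836 for C1qa in 3’-LEXO. Each lowest value came without control mouse 3, for C1qa without control mouse 2, and none of these passed the test.

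The number of genes called in Trad-KAPA (2255) was 1147 with iron-loaded mice 2 and 3 summed and 841 to 2803 without 1 mouse. With plain library totals it was 2177, of which 1339 were higher, against 1154 of 2255 with TMM, and the median log2 fold change of all genes was 0.09 instead of 0.02. In 3’-LEXO (811) it was 1381 with DESeq2, 1681 with all 12 libraries in 1 fit, 445 with mice 2 and 3 summed, 2040 with no filter, 436 with the replicate block across diets, where the numbers pair no mice, and 199 to 871 without 1 mouse. The interaction called 7 genes with no filter and 5 with the mouse as the replicate block, and no member in either.

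The interaction of 3 members is near 0 and changed sign. Without 1 mouse it ranged from -0.115685 to 0.091958 for Clec4f, from -0.122642 to 0.218604 for Timd4 and from -0.128291 to 0.184903 for C1qb. For Clec4f it was 0.005955 with DESeq2, 0.005716 with its size factors, and 0.051188 with mice 2 and 3 summed. For Timd4 it was -0.002982 with no filter. For C1qb it was -0.013591 with no filter, -0.009963 with plain totals and -0.006152 with the mouse as the replicate block. The cause was not tested.

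The summed level of the 9 members without Marco in the iron-loaded Trad-KAPA libraries was 809.7 CPM with TMM scaling, against 830.6. Without division by length the shares of C1qa, C1qb and C1qc in Trad-KAPA were 36.9%, 29.3% and 33.9%, and with the length of the longest transcript they were 39.2%, 29.7% and 31.1%. Of the 5 genes most like the members, at most 1 stayed among the 5 under another measure of likeness. Each member had at least 64 counts in every library, and 3 mice in 1 cage stand for each diet.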

Other observations

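Of 14 ligands, receptors and lineage factors around the receptor encoded by Csf1r, all tested, 1 was called higher in each kit and 0 lower, while 8.77% of all genes were called higher in Trad-KAPA and 3.17% in 3’-LEXO. This was Tgfbr1, a receptor for TGF-beta, which rose from 21.3 to 46.5 CPM in Trad-KAPA (fold change 2.07, edgeR adjusted p = 0.00197) and from 8.78 to 15.8 CPM in 3’-LEXO (1.74, adjusted p = 0.0408). Of 9 partners of C1q and proteins of the classical pathway, 1 was called higher in Trad-KAPA and 0 in 3’-LEXO. It was Masp1, a protease of the lectin pathway, named after its values were seen, with a log2 fold change of 0.42 (adjusted p = 0.0354) in Trad-KAPA.

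Of 8 hepatocyte markers, 2 were called lower in Trad-KAPA and 1 in 3’-LEXO. Among all genes tested, Trad-KAPA called 8.37% lower and 8.77% higher, whereas the 3’-LEXO shares were 2.92% lower and 3.17% higher. Fabp1, a fatty acid binding protein, had a fold change of 0.418 (edgeR adjusted p = 0.0227) in Trad-KAPA and of 0.480 (adjusted p = 0.0546) in 3’-LEXO, and Ass1, an enzyme of the urea cycle, had 0.611 (adjusted p = 0.0346) in Trad-KAPA and 0.644 (adjusted p = 0.0395) in 3’-LEXO. Of 8 hepatic stellate cell markers, Des was called lower in Trad-KAPA (fold change 0.575, adjusted p = 0.0301), and 0 were called in 3’-LEXO, where its fold change was 0.937 (adjusted p = 0.801). Spp1, which also stands in the list of recruited macrophage genes, was the 1 cholangiocyte marker called, with fold changes of 1.57 and 1.63. With edgeR at an adjusted p of 0.05, 0 dendritic cell, lymphocyte or red cell precursor markers were called in either kit. Tested in Trad-KAPA and 3’-LEXO were 2 and 1 of 5 dendritic cell, 5 and 4 of 9 lymphocyte, and 4 and 4 of 6 red cell precursor markers. The fold changes of these 4 were 0.221 to 0.474 in Trad-KAPA (edgeR adjusted p from 0.0618 to 0.134). In 3’-LEXO they were 0.264 to 0.468 (adjusted p from 0.0857 to 0.188). The red cell precursor markers summed to 20.3 to 151 CPM in the control livers and 16.4 to 28.9 CPM in the iron-loaded livers in Trad-KAPA.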
